A study of Rattus norvegicus with 192 samples.

Results

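The genes described here are the nuclear-encoded genes of oxidative phosphorylation, taken as the rows of the count table whose symbols begin with Nduf followed by a subunit letter and a digit, Sdha to Sdhd, Uqcr, Cox4 to Cox8, or Atp5. The rule found 82 genes among 17483. Of these, 77 encode subunits: 33 of complex I, 4 of complex II, 8 of complex III, 16 of complex IV (with Ndufa4 counted there) and 16 of complex V. The other 5 are Atp5if1 (an inhibitor of ATP synthase), Cox7a2l (a factor of respiratory supercomplexes), Ndufa4l2 (a paralog of Ndufa4), Ndufa10l1 (a copy of Ndufa10) and Cox6c-ps1 (a pseudogene). The rule uses symbols alone and no measured value.

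Complexes I and II of the inner mitochondrial membrane pass electrons from NADH and succinate to ubiquinone, complex III passes them to cytochrome c, and complex IV passes them to oxygen. Complexes I, III and IV pump protons, and complex V, the ATP synthase, uses the proton gradient to make ATP. Most subunits are encoded in the nucleus and the remainder in mitochondrial DNA, and several nuclear subunits of complex IV exist as isoforms of different tissues.

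Adult wild-type male rats of the Crl:CD(SD) strain gave RNA from 4 organs, the liver, the thyroid, the pituitary and the hypothalamus. Rats received corn oil (vehicle), 8 mg/kg vancomycin, 3 mg/kg PFOS (perfluorooctane sulfonate, a persistent surfactant) or both compounds daily by gavage for 7 days, from postnatal day 56 to 62. Each of the 16 groups held 12 libraries, made by 3' bulk RNA barcoding, in which a library's barcode is attached before samples are pooled. Each library is 1 tissue sample, and counts from the 3' end carry no term for transcript length. The series asks how PFOS and vancomycin act on the thyroid hormone system in these organs.

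Of 192 libraries, 14 with under 100000 counts were left out, 11 of them from liver. The groups kept, in the order vehicle, vancomycin, PFOS, combination, held 12, 12, 12 and 11 hypothalamus libraries, 12 pituitary libraries each, 12, 12, 10 and 12 thyroid libraries, and 9, 10, 8 and 10 liver libraries. Totals ran from 106742 to 3387946 counts with a median of 553097.5. The marker genes of each tissue were highest there. Summed hepatocyte markers had a median of 130300 CPM (counts scaled to a common library total) in vehicle liver, and thyrocyte markers of 43780 CPM in vehicle thyroid. Both were also present in the other tissue of the same plate, with hepatocyte markers at 1449 CPM in thyroid and thyrocyte markers at 857.5 CPM in liver. On the other plate, pituitary endocrine markers had a median of 405900 CPM in vehicle pituitary and 5635 CPM in hypothalamus. The part of such signal in the members' levels was not tested. Markers of parathyroid and C cells reached 54080 CPM in vehicle thyroid. In bulk samples, fewer cells of a type and less RNA per cell cannot be told apart.

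The share of all counts that fell on the 77 subunit genes was highest in hypothalamus. Under vehicle it ranged from 5.27% to 6.16% of a library's counts there, with a median of 5.71% (5.73 ± 0.23%, mean ± SD, n = 12). Thyroid libraries held 4.28% to 4.91%, with a median of 4.60% (4.59 ± 0.17%, n = 12). Liver held 2.87% to 3.50%, with a median of 3.203% (3.21 ± 0.18%, n = 9), and pituitary 2.601% to 3.17%, with a median of 2.83% (2.88 ± 0.20%, n = 12). The hypothalamus and thyroid ranges overlapped with no other tissue, whereas the liver and pituitary ranges overlapped. These shares are descriptions with no test.

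A few very abundant transcripts fill much of some libraries. The 10 most abundant genes held 40.6% of the counts of pituitary libraries (SD 4.16, n = 48), 32.5% of those of liver, 17.9% of those of thyroid and 6.56% of those of hypothalamus. With those genes left out of the denominator, the subunit share was 6.13 ± 0.25% in hypothalamus, 5.57 ± 0.28% in thyroid, 4.996 ± 0.159% in pituitary and 4.78 ± 0.38% in liver. The order of pituitary and liver was thus turned, and the spread between tissues was smaller.

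**Figure D1:**
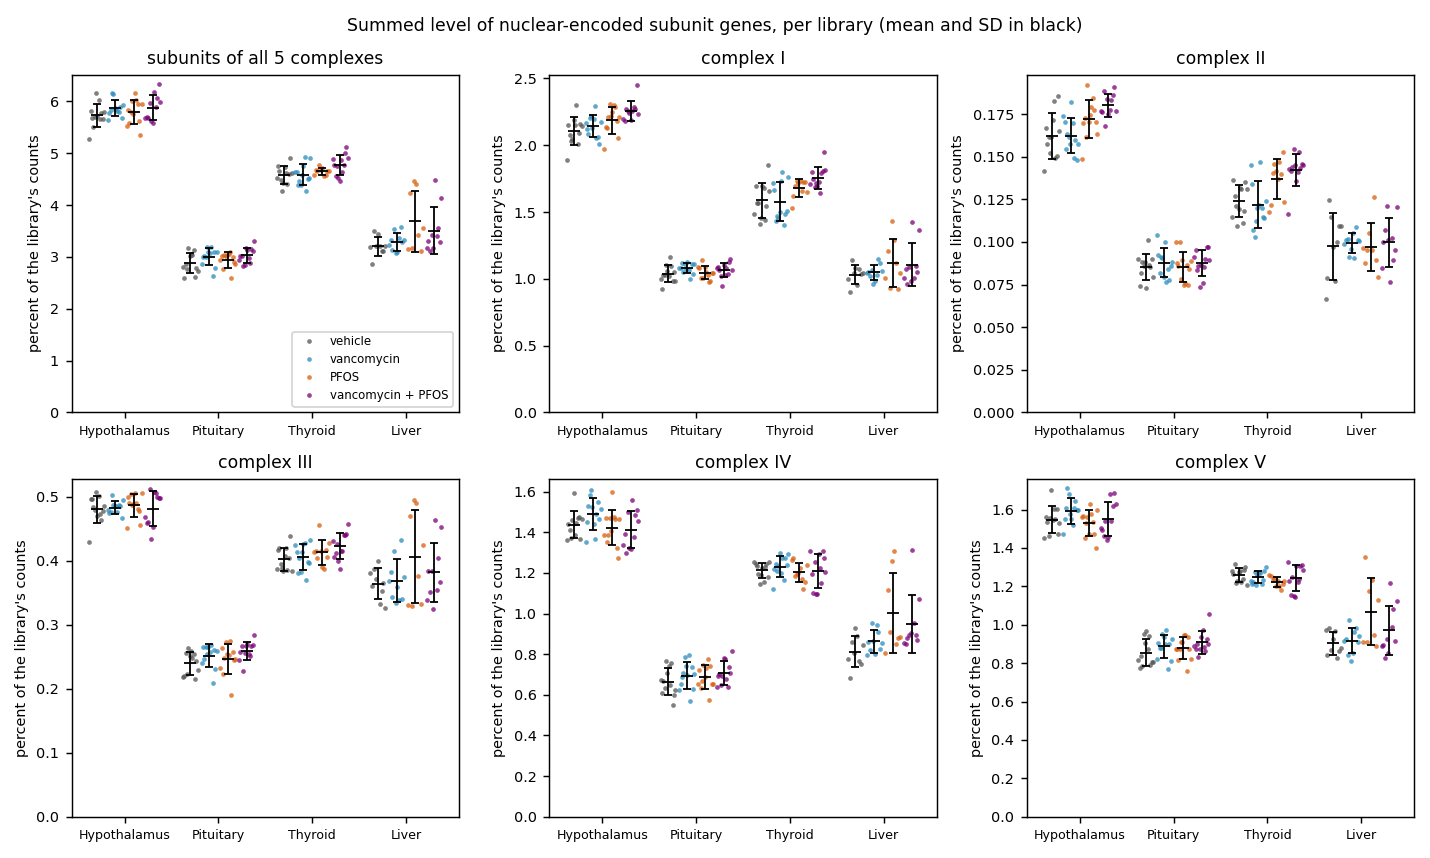
Percent of each library's counts on nuclear subunit genes, for all 5 complexes together and for each complex, by tissue (x axis) and treatment (colour). Points are libraries, and black marks give the mean and SD. Hypothalamus is highest in every panel, and in the panel of all complexes the PFOS and combination groups of liver are the most widely spread, with libraries up to 4.47% and 4.49%.

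Each complex followed the same order at its upper end. Complex I subunits made up 2.10 ± 0.10% of counts in vehicle hypothalamus, 1.59 ± 0.13% in thyroid, 1.04 ± 0.06% in pituitary and 1.03 ± 0.07% in liver. Complex IV gave 1.44 ± 0.07%, 1.21 ± 0.04%, 0.665 ± 0.067% and 0.811 ± 0.076% in the same tissues. Complex V gave 1.55 ± 0.07%, 1.26 ± 0.04%, 0.854 ± 0.070% and 0.904 ± 0.060%. Complex III ranged from 0.480 ± 0.021% in hypothalamus to 0.240 ± 0.018% in pituitary, with liver at 0.364 ± 0.024%. With the 10 most abundant genes left out of the denominator, complex III was at 0.542 ± 0.040% in liver and 0.513 ± 0.023% in hypothalamus. Hypothalamus kept the highest mean for the other complexes. Complex II, which shares its enzyme with the citrate cycle, ran from 0.162 ± 0.013% in hypothalamus to 0.0853 ± 0.0077% in pituitary.

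Tests between tissues used edgeR with TMM scaling, which scales libraries so that most genes are level, and covered 6560 genes, 75 of them members. Hypothalamus was higher than pituitary for 52 members and lower for 7, where 37.3% and 30.9% of all genes were called higher and lower. Against thyroid, hypothalamus was higher for 34 members and lower for 19 (background 38.2% and 37.9%). Against liver, it was higher for 11 and lower for 41 (42.6% and 32.9%). Pituitary was higher than thyroid for 10 members and lower for 45 (32.9% and 35.4%), and higher than liver for 7 and lower for 62 (39.7% and 30.9%). Thyroid was higher than liver for 11 and lower for 55 (38.2% and 26.6%). Hypothalamus and pituitary shared a plate, as did thyroid and liver, so in pairs across plates tissue and plate cannot be told apart. The tissues of a plate differed in their barcodes, so within a plate tissue and barcode cannot be told apart.

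By complex, the pituitary and thyroid pair was the most uneven. Pituitary was lower for 10 of 12 complex IV genes tested and higher for 0, with a median log2 difference of -0.82, while complex I had 6 higher and 17 lower of 33 (median -0.22). Between hypothalamus and thyroid, complex I had 20 higher and 7 lower (median 0.30), and complex IV 4 higher and 5 lower (median -0.01). Against liver, pituitary was lower for 27 of 33 complex I genes, 4 of 4 of complex II, 7 of 8 of complex III, 11 of 12 of complex IV and 13 of 15 of complex V.

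The direction of these counts depends on the scaling. With library totals alone and no TMM factors, hypothalamus was higher than liver for 68 members and lower for 3, thyroid was higher than liver for 59 and lower for 4, and pituitary was higher than liver for 26 and lower for 27. The same change gave 70 and 0 for hypothalamus against pituitary, 53 and 10 for hypothalamus against thyroid, and 3 and 62 for pituitary against thyroid. The median of all genes moved with it, from 0.22 to 1.64 on the log2 scale for hypothalamus against liver and from 0.28 to 1.39 for thyroid against liver.

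Relative to the median of the 6560 genes tested, the members were highest in liver. These genes passed the filter on low counts with all tissues fitted together. In the treatment fits of single tissues, 3250 genes passed it in liver and 6596 in hypothalamus. The part of genes scarce in liver in the differences below was not tested. The member median lay below that of all genes by a difference of -0.58 (log2) for hypothalamus against liver, -1.12 for pituitary against liver and -0.80 for thyroid against liver. For hypothalamus against pituitary the difference was 0.39, for hypothalamus against thyroid 0.13, and for pituitary against thyroid -0.27. Over TMM, library totals, DESeq2 size factors and DESeq2 itself, the hypothalamus and liver value ran from -0.62 to -0.58. A change of scaling moves members and all genes together and largely cancels in this difference. The narrow range is therefore no check of it. Values with TMM are given for single members below, and the levels in CPM stand beside them.

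Within complex I, the accessory subunits Ndufa8 and Ndufb4 differed in the place of thyroid, which had the lowest median of Ndufa8 and the highest of Ndufb4. Ndufa8 lay between 901.9 and 1265 CPM in vehicle hypothalamus (median 1011) and between 101.3 and 164.8 CPM in thyroid (median 132.8). Its median was 230.4 CPM in pituitary and 168.6 CPM in liver, so that each hypothalamus library exceeded those of the other tissues. The log2 difference was 2.72 ± 0.11 (SE) for hypothalamus against thyroid (adjusted p = 1.29e-31) and 1.46 ± 0.11 against pituitary (adjusted p = 7.84e-19).

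Ndufb4 reached 1457 to 2658 CPM in thyroid (median 2000), 1143 to 1685 in hypothalamus (median 1322), 564.8 to 1073 in pituitary (median 787.1) and 502.3 to 814.5 in liver (median 698.1). The thyroid and hypothalamus ranges overlapped, and the log2 difference for hypothalamus against thyroid was -0.85 ± 0.11 (adjusted p = 2.07e-10). Ndufa1, a small membrane subunit of complex I, was likewise highest in thyroid, with 1225 to 1752 CPM (median 1366) against 605.5 to 748.6 in hypothalamus (median 695.6). These ranges did not overlap, and the log2 difference for hypothalamus against thyroid was -1.31 ± 0.10 (adjusted p = 5.93e-18).

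Ndufs1, the largest core subunit of complex I, was the least abundant complex I gene in hypothalamus, thyroid and liver. Its vehicle medians were 130.7 CPM in hypothalamus, 76.65 in pituitary, 38.99 in thyroid and 24.39 in liver. Hypothalamus exceeded thyroid by 1.41 ± 0.13 (log2, adjusted p = 4.90e-16). Ndufv3, an accessory subunit at the NADH-binding end, ran the other way, with medians of 295.3, 268.0, 468.0 and 491.1 CPM. Among core subunits, Ndufs7 had medians of 543.7, 205.5, 319.7 and 284.3 CPM and Ndufv1 of 217.1, 55.10, 148.1 and 93.68 CPM in the same order.

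Levels within complex II were less uneven than within complex I. Sdhb, the iron-sulfur subunit, had vehicle medians of 625.2 CPM in hypothalamus, 334.3 in pituitary, 401.2 in thyroid and 453.6 in liver, and Sdha, the flavoprotein subunit, had 226.9, 129.9, 213.2 and 139.0 CPM. The most and least abundant complex II genes differed by a ratio of mean CPM of 2.90 in thyroid to 3.96 in hypothalamus. The same ratio for complex I was 11.4 in hypothalamus and 49.3 in thyroid, so expression within that complex was more uneven.

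Uqcrq, a small subunit of complex III, was higher in liver than in each other tissue. It lay between 1187 and 1985 CPM in liver (median 1787), 732.2 and 1072 in hypothalamus (median 881.9), 692.0 and 1093 in thyroid (median 801.9), and 404.7 and 637.6 in pituitary (median 529.8). No liver library overlapped with another tissue. The log2 difference from liver was -2.30 ± 0.11 in hypothalamus (adjusted p = 1.12e-28), -2.06 ± 0.11 in thyroid (adjusted p = 3.67e-26) and -2.50 ± 0.11 in pituitary (adjusted p = 5.50e-30), and it stayed called under all 11 alternatives in each pair. Uqcrfs1, the Rieske iron-sulfur protein, was the least abundant complex III gene in each tissue, with medians of 112.4 CPM in hypothalamus and 60.98 in liver.

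**Figure D2:**
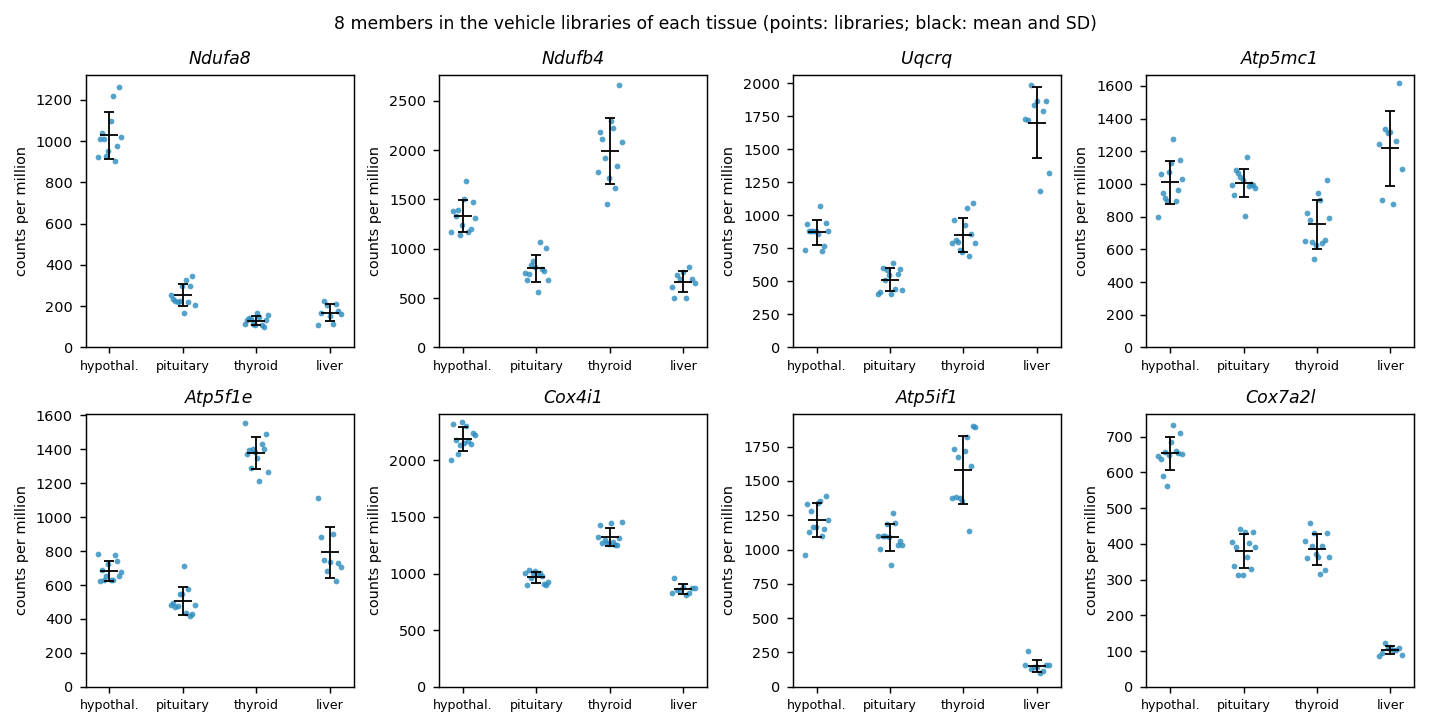
CPM of 8 members (y axis, from 0) in vehicle libraries of the 4 tissues. Points are libraries, and black marks give the mean and SD (n = 12, 12, 12 and 9). Ndufa8 is high in hypothalamus, Uqcrq in liver, Ndufb4 and Atp5f1e in thyroid, while Atp5if1 and Cox7a2l are lowest in liver.

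In complex IV, Ndufa4 was the most abundant gene in each tissue, with vehicle medians of 2364 CPM in hypothalamus, 1501 in pituitary, 1964 in thyroid and 1682 in liver. Cox4i1, the ubiquitous form of subunit 4, ranged from 1999 to 2335 CPM in hypothalamus (median 2179), 1253 to 1454 in thyroid (median 1285), 901.0 to 1031 in pituitary (median 985.1) and 811.9 to 964.9 in liver (median 858.4). With TMM, hypothalamus exceeded pituitary by 0.60 ± 0.08 (log2, adjusted p = 9.06e-10). Against liver the difference was 0.00 ± 0.09 (adjusted p = 0.997, interval -0.17 to 0.17), although the CPM ranges of these tissues did not overlap. Cox5a, a matrix-side subunit, had medians of 520.3, 115.5, 298.5 and 210.7 CPM in hypothalamus, pituitary, thyroid and liver, with hypothalamus above pituitary by 1.55 ± 0.12 (adjusted p = 1.59e-17).

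Tissue-specific isoforms of complex IV were scarce beside their ubiquitous partners. Cox4i2, an isoform linked to oxygen sensing, had vehicle medians of 25.86 CPM in thyroid, 18.05 in hypothalamus and 9.043 in pituitary, and was at 0 in most liver libraries (highest 6.098 CPM). Cox6a2, the heart and muscle form of subunit 6a, lay between 3.984 and 19.24 CPM in hypothalamus (median 12.84), while Cox6a1 had a median of 713.8 CPM there. Cox6b2, known as the testis form, had a median of 10.40 CPM in hypothalamus against 1856 for Cox6b1. Ndufa4l2, a paralog linked to low oxygen, had medians of 12.97 CPM in hypothalamus, 18.75 in pituitary and 19.38 in thyroid and was at 0 in all 9 vehicle libraries of liver. Cox8b had a median of 0 CPM in hypothalamus, pituitary and liver. Cox8c was found in 5 counts over all libraries kept, and Atp5me in 0, which allows up to 0.0882 CPM over the summed hypothalamus libraries and 0.134 CPM over those of liver. Such limits cover counting error only. Of the 82 genes, 73 passed the filter on low counts in all 4 tissues, 4 in some and 5 in none (Atp5me, Cox6c-ps1, Cox8b, Cox8c and Ndufa10l1). Cox7a1 and Cox7b2 were not analysed here.

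Cox5b, Cox7a2 and Cox8a, which are the widely expressed forms, were well measured in each tissue. Cox5b had vehicle medians of 1089 CPM in hypothalamus, 745.3 in thyroid, 624.9 in liver and 338.9 in pituitary. Cox7a2 had 1569, 1316, 970.5 and 892.1 CPM in the same order. Cox8a varied most among libraries, from 579.6 to 1242 CPM in hypothalamus (median 840.3), 735.5 to 1553 in thyroid (median 1061), 163.4 to 664.2 in liver (median 296.4) and 148.1 to 534.3 in pituitary (median 231.6), and pituitary lay below thyroid by a log2 difference of -1.81 ± 0.20 (adjusted p = 3.06e-11).

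The muscle isoforms were high in a few thyroid libraries. Summed skeletal muscle markers (15 genes, all 15 detected in vehicle thyroid) ran from 3.0 to 934.7 CPM over 46 thyroid libraries. Its medians were 13.54 CPM under vehicle, 17.40 under vancomycin, 115.1 under PFOS and 25.11 under the combination. In 4 libraries, 1 of each treatment, the sum was 615.0, 752.3, 873.0 and 934.7 CPM, and Cox6a2 stood at 16.3, 15.2, 15.1 and 12.4 CPM. The other 42 libraries had sums up to 270.6 CPM, a Cox6a2 median of 1.45 CPM and a highest value of 11.7 CPM. Cox8b was at 15.4, 20.3, 17.2 and 17.4 CPM in those 4 libraries against a median of 1.1 CPM in the others. A single PFOS library with the highest brown adipocyte sum (176.2 CPM) had the highest Cox8b value, 37.2 CPM.

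Since the libraries fall into 2 clusters, divided at 500 CPM after the values were seen, relations are given within the 42 only, as 4 relations with permutation tests of 100000 resamples. Cox6a2 and the muscle sum gave r = 0.53 (permutation p = 0.0014, adjusted 0.0028) and rho = 0.16 (permutation p = 0.30, adjusted 0.41), and r = 0.28 (permutation p = 0.07) without the 2 libraries farthest from the median, so the relation rests on those. Cox8b and the brown adipocyte sum gave r = 0.84 (permutation p = 6e-05, adjusted 0.00024), rho = 0.41 (permutation p = 0.0089, adjusted 0.036) and r = 0.29 (permutation p = 0.071) without the 2 farthest libraries, so it too rests on those. Cox6a2 with the brown adipocyte sum (r = -0.08, rho = 0.06) and Cox8b with the muscle sum (r = 0.17, rho = 0.19) had adjusted permutation p from 0.29 to 0.69. Cox6a2 rested on 86 counts and Cox8b on 109 over all 46 libraries.

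In complex V, Atp5f1e (the small epsilon subunit) was highest in thyroid by CPM. Its vehicle range was 1213 to 1553 CPM there (median 1388), against 623.0 to 782.1 in hypothalamus (median 664.4), 414.6 to 713.4 in pituitary (median 482.6) and 624.3 to 1116 in liver (median 736.7). The log2 difference for hypothalamus against thyroid was -1.28 ± 0.09 (adjusted p = 2.27e-20). For hypothalamus against liver it was -1.53, so with TMM thyroid did not lie above liver. The catalytic subunits were less uneven. Atp5f1a had medians of 1243, 635.6, 889.3 and 500 CPM in hypothalamus, pituitary, thyroid and liver, and Atp5f1b of 806.8, 342.6, 712.8 and 618.0 CPM.

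The 3 genes of the proton-carrying c subunit, Atp5mc1, Atp5mc2 and Atp5mc3, encode the same mature protein and are known to be regulated separately. Atp5mc1 was the leading gene of the 3 in liver (median 1263 CPM) and pituitary (995.7 CPM), Atp5mc2 in thyroid (976.6 CPM) and Atp5mc3 in hypothalamus (1257 CPM). Atp5mc1 in liver exceeded hypothalamus (log2 difference -1.62 ± 0.12 for hypothalamus against liver, adjusted p = 6.80e-20). Their promoters are shown because these genes were called in opposite directions under treatment, calls that were lost with depth as a covariate (below). Each run is 300 bases of RefSeq, assembly GRCr8, 250 before and 50 after the gene's start, and capitals mark matches on either strand. Atp5mc1 lies at chr10:81523296-81523595 (minus strand), Atp5mc2 at chr7:135678169-135678468 (minus), Atp5mc3 at chr3:79220615-79220914 (minus) and Ndufb4 at chr11:76568928-76569227 (plus).
Atp5mc1: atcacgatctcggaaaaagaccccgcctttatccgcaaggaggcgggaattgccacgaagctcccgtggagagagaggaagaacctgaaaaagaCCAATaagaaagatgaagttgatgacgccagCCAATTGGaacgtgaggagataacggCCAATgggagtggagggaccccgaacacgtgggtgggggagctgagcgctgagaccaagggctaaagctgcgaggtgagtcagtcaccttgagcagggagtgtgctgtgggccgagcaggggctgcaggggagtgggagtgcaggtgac
Atp5mc2: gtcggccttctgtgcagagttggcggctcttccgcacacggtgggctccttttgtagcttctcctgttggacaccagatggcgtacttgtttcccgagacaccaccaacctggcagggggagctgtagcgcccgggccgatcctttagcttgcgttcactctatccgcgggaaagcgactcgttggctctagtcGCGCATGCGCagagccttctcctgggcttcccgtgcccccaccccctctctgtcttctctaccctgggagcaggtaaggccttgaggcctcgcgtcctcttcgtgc
Atp5mc3: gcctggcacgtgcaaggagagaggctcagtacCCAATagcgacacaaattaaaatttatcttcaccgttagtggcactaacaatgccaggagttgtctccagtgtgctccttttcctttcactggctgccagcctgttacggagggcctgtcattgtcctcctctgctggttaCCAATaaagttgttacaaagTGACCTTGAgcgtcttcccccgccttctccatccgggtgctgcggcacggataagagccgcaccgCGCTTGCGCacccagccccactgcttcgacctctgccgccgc
Ndufb4: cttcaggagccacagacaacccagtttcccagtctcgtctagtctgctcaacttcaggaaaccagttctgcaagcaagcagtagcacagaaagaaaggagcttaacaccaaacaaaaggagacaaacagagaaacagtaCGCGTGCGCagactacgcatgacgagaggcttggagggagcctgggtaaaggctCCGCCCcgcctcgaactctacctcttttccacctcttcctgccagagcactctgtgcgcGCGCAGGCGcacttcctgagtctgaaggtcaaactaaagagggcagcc

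The Atp5mc1 window held 4 CCAAT matches and no other motif. Atp5mc2 held the NRF1-type motif on both strands of 1 site, beginning at base -56. Atp5mc3 held 1 NRF1-type match beginning at base 9, 1 ERR-type match beginning at base -57 and 2 CCAAT matches. Ndufb4 held 2 NRF1-type matches, beginning at bases -111 and 3, and 1 SP1-type match. NRF1 and ERR factors are known activators of respiratory chain genes. A match is a description of letters and not a bound site.

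Over 70 members with a promoter in the RefSeq table (12 had no entry), the NRF1-type motif GCGCANGCG was found in 25.7% against 6.3% of 27457 promoters of all gene symbols. The YY1-type motif AAGATGGCG was found in 14.3% against 1.9%, the ETS/GABP-type motif CCGGAAGT in 11.4% against 4.0% and the ERR-type motif TCAAGGTCA in 2.9% against 0.4%. GGGCGG, the SP1-type motif, was found in 41.4% against 34.9%, and CCAAT in 32.9% against 37.7%. Both strands were searched, none of the 6 motifs contains another, and the median GC content was 56% for members and 52.3% for all. Ndufa6 held 4 of the 6 motifs. No test was made.

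Among genes outside the complexes proper, Atp5if1 and Cox7a2l were lowest in liver. Atp5if1 had 102.6 to 262.3 CPM in liver (median 147.3), 1138 to 1899 in thyroid (median 1640), 962.7 to 1386 in hypothalamus (median 1190) and 887.3 to 1266 in pituitary (median 1094). The log2 difference from liver was 2.36 ± 0.11 in thyroid (adjusted p = 8.02e-29), 2.12 ± 0.11 in pituitary (adjusted p = 1.53e-26) and 1.71 ± 0.11 in hypothalamus (adjusted p = 2.61e-22). Cox7a2l had medians of 652.8, 390.7, 382.2 and 104.1 CPM in hypothalamus, pituitary, thyroid and liver, with hypothalamus above liver by 1.27 ± 0.11 (adjusted p = 1.24e-16). Both were thus low in the tissue where the member median, relative to the median gene, was highest.

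Ndufa10, an accessory subunit of complex I, had the widest tissue difference within that complex, and its level moved with the library barcode. Its vehicle range was 370.1 to 733.0 CPM in hypothalamus (median 544.5), 190.0 to 552.5 in thyroid (median 330.3), 9.150 to 52.58 in pituitary (median 33.85) and 26.70 to 64.33 in liver (median 37.13). Hypothalamus exceeded pituitary by 3.46 ± 0.17 (log2, adjusted p = 7.07e-27). All vehicle libraries of hypothalamus and thyroid had barcodes with 1 G or C base among 6, whereas pituitary and liver libraries had 3 to 5, so tissue and barcode cannot be told apart in such pairs.

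Within the combination group, where barcodes differed inside a tissue, the same gene differed as well. In hypothalamus, 7 libraries with 1 G or C base had 557.7 to 939.2 CPM of Ndufa10 (median 666.6) and 4 with 3 such bases had 133.6 to 242.1 CPM (median 177.4). In thyroid, 7 libraries with 1 base had 332.3 to 617.8 CPM (median 433.2) and 5 with 2 or 3 bases had 87.95 to 158.5 CPM (median 126.2). The ranges did not overlap in either tissue, and the ratio of means was 3.88 and 3.52. Of the members at 20 CPM or more in one of the 2 sets (73 in hypothalamus and 75 in thyroid), Ndufa10 was the only one beyond 1.5-fold, where 9.02% of 5257 genes at that level in hypothalamus and 12.5% of 4712 in thyroid were. Atp5if1 also had ranges that did not overlap in hypothalamus, with a ratio of 0.915. In pituitary and liver vehicle libraries, with 5 against 3 or 4 such bases, Ndufa10 did not exceed that fold. Ndufa4l2 did in pituitary, with a ratio of 1.57, and no member did in liver (all genes beyond that fold 6.65% and 21.5%). In liver, the ranges of Ndufa5 and Ndufv1 did not overlap. The share of all genes with ranges that did not overlap was not counted, so the overlaps of ranges have no background here.

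**Figure D3:**
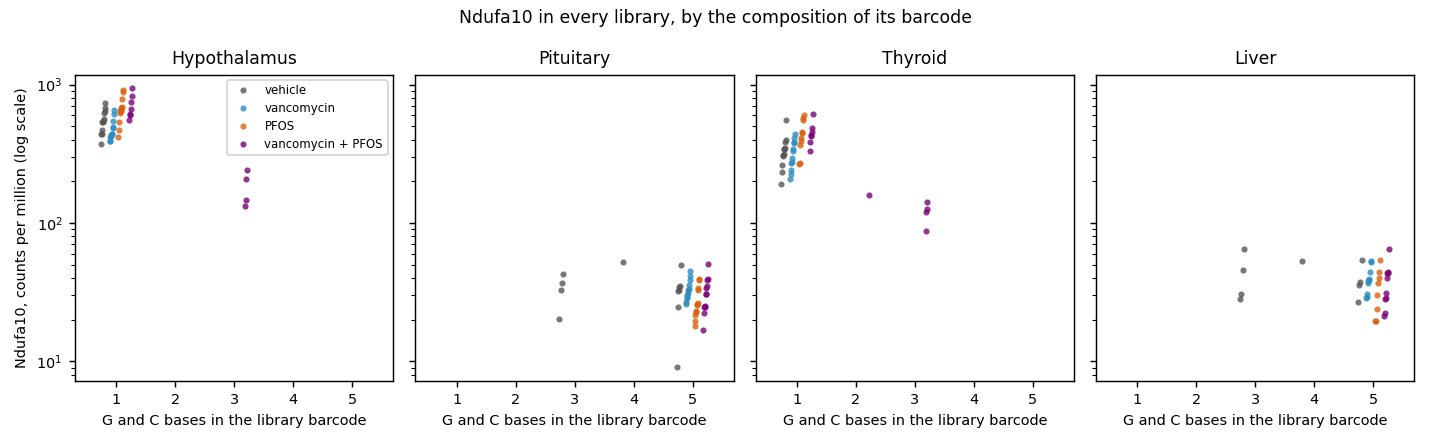
Ndufa10 CPM (log scale) in every library kept, against the number of G and C bases in its 6-base barcode, by tissue and treatment (colour). The combination libraries of hypothalamus and thyroid with 2 or 3 such bases lie at 87.95 to 158.5 CPM in thyroid and 133.6 to 242.1 CPM in hypothalamus, below every library of the same tissue with 1.

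Treatment was then compared within each tissue, with 77 members tested in hypothalamus, 75 in thyroid and 73 each in pituitary and liver. In hypothalamus, PFOS against vehicle called Ndufb4 higher and Ndufc2 lower, 1 member each way, where 1.15% of 6596 genes were called higher and 3.21% lower. The combination against vehicle called 6 members higher and 6 lower (background 3% and 5.14%), and the combination against vancomycin called 4 higher and 11 lower (2.94% and 4.88%). No member was called for vancomycin against vehicle (0 at unadjusted p under 0.05, 0 by DESeq2, background 0%), the combination against PFOS (4 and 0, 0%) or the interaction (4 and 0, 0%). Here and below, the background is the share of all genes called at an adjusted p under 0.05. At an unadjusted p under 0.05, the shares of all genes were 2.79%, 7.43% and 4.21% in the same order. The combination contrasts share libraries, so they are not separate evidence.

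The c-subunit genes moved in opposite directions in hypothalamus. Atp5mc1 rose from 798.2 to 1274 CPM under vehicle (median 996.6) to 1040 to 1485 CPM under the combination (median 1196), by 0.21 ± 0.07 (log2, adjusted p = 0.0349), and 11 of 11 libraries lay above the vehicle mean. Atp5mc2 fell from a vehicle range of 585.6 to 824.9 CPM (median 785.5) to 515.1 to 796.8 CPM (median 625.7), a change of -0.31 ± 0.08 (adjusted p = 0.00406). Atp5mc3 fell from 834.6 to 1822 CPM (median 1257) to 722.0 to 1537 CPM (median 1033), a change of -0.41 ± 0.13 (adjusted p = 0.0417). The ranges overlapped for each of the 3 genes. Their medians under PFOS alone were 1160, 658.0 and 1089 CPM, and under vancomycin alone 999.1, 800.9 and 1436 CPM.

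The other rises under the combination in hypothalamus were small. Ndufb4 had medians of 1322 CPM under vehicle, 1388 under vancomycin, 1568 under PFOS and 1662 under the combination, the last a change of 0.27 ± 0.06 against vehicle (adjusted p = 0.00417). Ndufa8 changed by 0.25 ± 0.07 (adjusted p = 0.0136), Sdhb by 0.189, and Ndufb8 and Atp5pf (the coupling factor 6 subunit of the ATP synthase stalk) by 0.185 each. Atp5pf had 993.1 to 1356 CPM under vehicle and 1337 to 1506 CPM under the combination, with all 11 libraries above the vehicle mean.

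Besides the c-subunit genes, Atp5f1e, Cox7b, Ndufc2 and Uqcrh fell. Atp5f1e went from 623.0 to 782.1 CPM under vehicle (median 664.4) to 460.0 to 658.1 CPM under the combination (median 564.6), a change of -0.32 ± 0.07 (adjusted p = 0.00103) with 0 of 11 libraries above the vehicle mean. Ndufc2, a membrane subunit of complex I, fell under PFOS alone by 0.32 ± 0.08 on the log2 scale (adjusted p = 0.0238), from a median of 630.6 to 517.5 CPM, with 0 of 12 libraries above the vehicle mean. Against vancomycin, the combination also had lower Cox8a (-0.51 ± 0.14, adjusted p = 0.0133), Atp5f1d, Ndufv1, Cox6c and Atp5pd. Cox8a, a small structural subunit of complex IV, had medians of 840.3 CPM under vehicle, 1164 under vancomycin, 777.0 under PFOS and 695.3 under the combination.

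**Figure D4:**
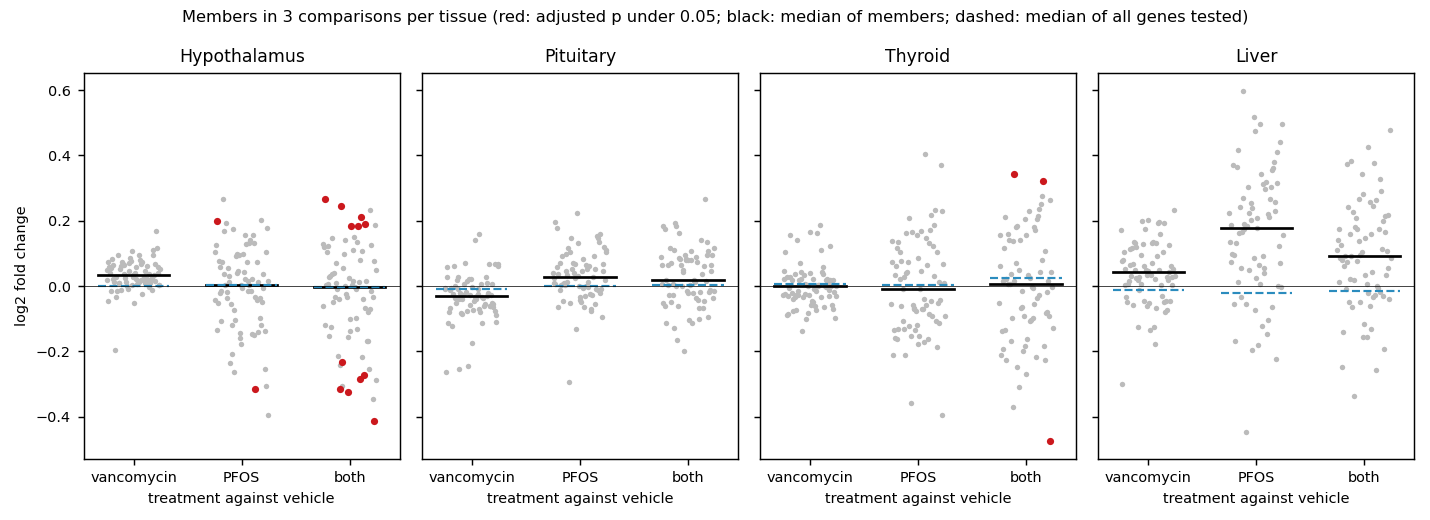
Log2 fold change of each member tested (points) against vehicle, for vancomycin, PFOS and both, by tissue. Red points passed an adjusted p of 0.05, the black bar is the member median and the dashed bar the median of all genes tested. Red points lie on both sides of 0 in hypothalamus and thyroid, and none are in pituitary or liver.

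Treatments occupied separate rows of the library plates, so row and treatment cannot be told apart, and library depth moved with these members. Median totals in hypothalamus were 875789.5 counts under vehicle, 751640.5 under vancomycin, 662537 under PFOS and 531350 under the combination. In a check chosen after seeing the data, within the 12 vehicle libraries alone, each of the 6 members called higher in hypothalamus had a negative correlation with log2 depth (r from -0.91 to -0.35) and each of the 11 called lower a positive one (r from 0.29 to 0.90). Of these 17 relations, 12 passed a Benjamini-Hochberg adjusted permutation p of 0.05 for Pearson's r (5 and 7) and 8 for Spearman's rho. Other genes were not examined in this way, so whether such relations are particular to these members was not tested. Without the 2 libraries farthest from the median depth, 5 relations passed for Pearson's r. Atp5mc3 had r = 0.88 (permutation p = 0.00017, adjusted 0.00058) and rho = 0.87 (permutation p = 0.00039, adjusted 0.0031), and r = 0.86 (permutation p = 0.0036, adjusted 0.03) without those 2.

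With log2 depth as a covariate, the 12 calls for the combination against vehicle became 0 and the 15 against vancomycin became 1, Atp5f1e (-0.22, adjusted p = 0.0393). Under that setting Atp5mc3 changed by -0.008 against vehicle (adjusted p = 0.991), Atp5mc2 by -0.117 (0.506), Atp5mc1 by 0.154 (0.336) and Atp5pf by 0.213 (0.0593). The 2 PFOS calls became 0. Without libraries of unusual barcodes, 3 calls against vehicle and 6 against vancomycin were made, and with all libraries thinned to 100000 counts 5 were made against vehicle. The share of all genes called under these alternatives was not counted. Whether the loss of calls was particular to the members was therefore not tested.

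**Figure D5:**
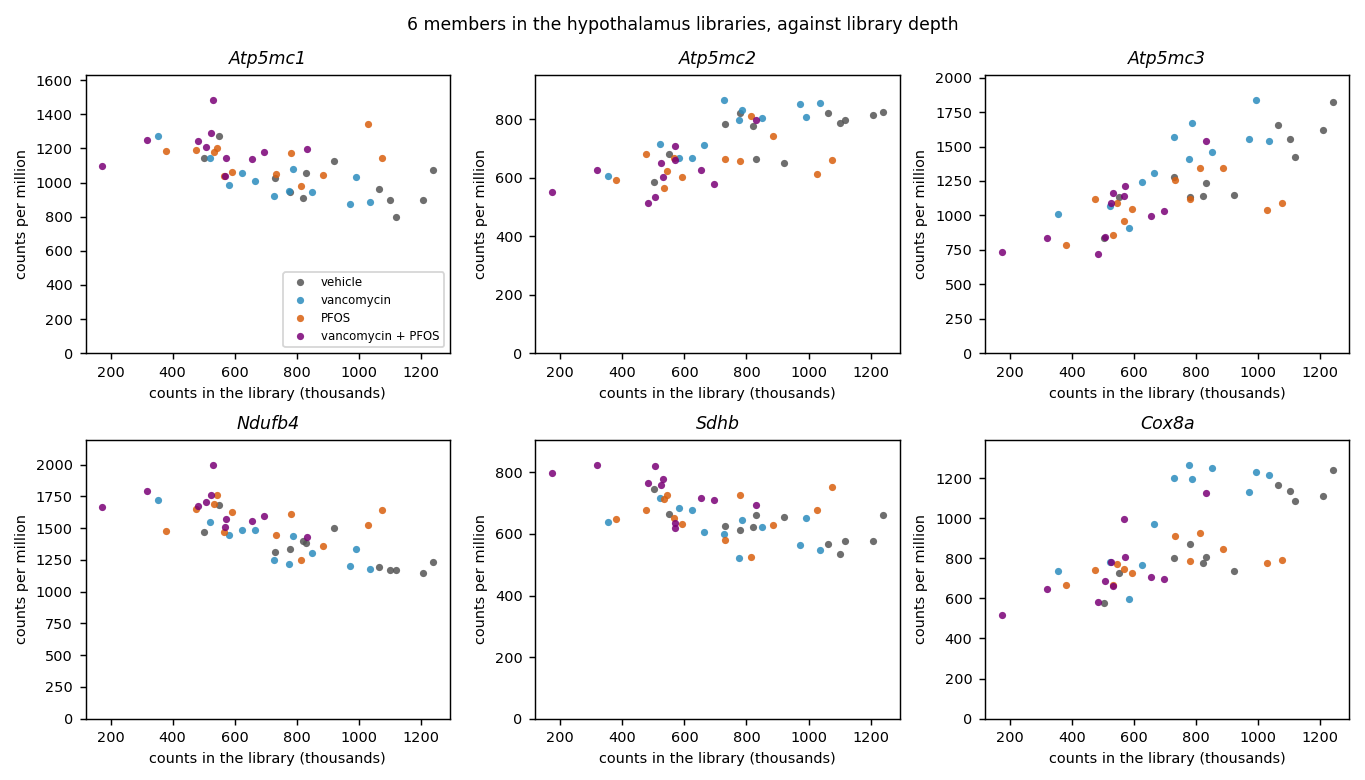
CPM of 6 members (y axis, from 0) in the 47 hypothalamus libraries against library total, coloured by treatment. Atp5mc2, Atp5mc3 and Cox8a increase with depth and Atp5mc1, Ndufb4 and Sdhb decrease, also among vehicle libraries, and the combination libraries lie mostly at lower totals.

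Thyroid showed some of the same members. Equal numbers in hypothalamus and thyroid share a barcode and their vehicle libraries deviated together, so thyroid is not separate evidence. The combination against vehicle called Ndufb4 and Ndufb8 higher and Atp5mc3 lower, where 0.943% of 5091 genes were called higher and 1.85% lower. Ndufb4 went from 1457 to 2658 CPM (median 2000) to 2086 to 3414 CPM (median 2541), by 0.32 ± 0.09 (adjusted p = 0.032), with 12 of 12 libraries above the vehicle mean. Atp5mc3 had medians of 679.5 and 486.3 CPM, a change of -0.47 ± 0.14 (adjusted p = 0.045). Against vancomycin, 3 members were called higher (Ndufb4, Ndufb8 and Sdhb) and 3 lower (Uqcrc1, Atp5mc2 and Ndufa6), with 0.845% and 2.4% as background. Uqcrc1, a core protein of complex III, had a median of 134.2 CPM under the combination and 176.7 under vancomycin, a change of -0.51 ± 0.14 (adjusted p = 0.027) with 0 of 12 libraries above the vancomycin mean.

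Depth differed in thyroid as well, with median totals of 841097 counts under vehicle, 555940 under vancomycin, 484695.5 under PFOS and 383435.5 under the combination. With log2 depth as a covariate, the 3 calls against vehicle and the 6 against vancomycin became 0. Within the 12 vehicle libraries of thyroid, the 3 members called higher had negative correlations with log2 depth (r from -0.79 to -0.54) and the 4 called lower positive ones (r from 0.49 to 0.83). Of these 7 relations, 5 passed an adjusted permutation p of 0.05 for Pearson's r and 5 for Spearman's rho. Without the 2 libraries farthest from the median depth, 0 passed for Pearson's r. Here too, other genes were not examined in this way. DESeq2 made 13 calls against vehicle and 16 against vancomycin. As in hypothalamus, the share of all genes called with DESeq2 or with depth as a covariate was not counted. No member was called for PFOS against vehicle (13 at unadjusted p under 0.05, 1 by DESeq2, background 0.0589%), vancomycin against vehicle (1 and 0, background 0%), the combination against PFOS (3 and 0, 0%) or the interaction (0 and 0, 0%). At an unadjusted p under 0.05, the shares of all genes were 16.5%, 2.57%, 6.25% and 4.03% in the same order.

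In pituitary no member was called in any contrast by edgeR or DESeq2. For PFOS against vehicle, 1 of 73 had an unadjusted p under 0.05 (background 1.19% called of 4380 genes). The count was 1 for vancomycin against vehicle (background 0.0228%), 1 for the combination against vehicle (1.37%), 3 against vancomycin (0%), 1 against PFOS (0%) and 0 for the interaction (0%). Of all genes, 6.07% had an unadjusted p under 0.05 for PFOS, and 4.68%, 7.9%, 6.74%, 2.79% and 3.06% in the other contrasts as ordered. The subunit share was 2.88 ± 0.20% under vehicle, 3.00 ± 0.16% under vancomycin, 2.94 ± 0.15% under PFOS and 3.03 ± 0.15% under the combination (n = 12 each).

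Liver held no called member either, but its PFOS groups were spread. The subunit share ran from 2.87% to 3.50% in 9 vehicle libraries and from 3.07% to 3.59% in 10 vancomycin libraries. Under PFOS, 5 of 8 libraries lay between 3.12% and 3.56% and 3 at 4.23%, 4.42% and 4.47%. Under the combination, 8 of 10 lay between 3.12% and 3.57% and 2 at 4.14% and 4.49%. The mean was 3.69 ± 0.59% for PFOS and 3.51 ± 0.45% for the combination, against 3.21 ± 0.18% for vehicle. The 5 high libraries had totals of 240998, 699642, 400957, 722265 and 281894 counts, and hepatocyte markers at 11.9%, 12.4%, 9.11%, 9.60% and 9.86% of counts, within or below the 11.9% to 16.8% of vehicle libraries. Low marker shares were not particular to them, since PFOS or combination libraries without a high subunit share had 9.741%, 10.299%, 10.824%, 10.965%, 11.106% and 11.148%.

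Of 73 members tested in liver, 58 had a positive log2 fold change for PFOS against vehicle, with a median of 0.18 beside -0.02 for all genes. No call was made by edgeR or DESeq2, with 0.831% of 3250 genes called. An unadjusted p under 0.05 was found for 13 members, 12 of them positive, and for 10.8% of all genes. The medians by complex were 0.32 for IV, 0.23 for V, 0.14 for III, 0.12 for I and 0.01 for II. Cox7c, a small subunit of complex IV, was at 0.52 ± 0.16 (adjusted p = 0.157) and Uqcrfs1 at 0.60 ± 0.18 (adjusted p = 0.14), each with 8 of 8 libraries above the vehicle mean. Uqcrfs1 had 18.74 to 71.76 CPM under vehicle (median 60.98) and 58.45 to 153.5 CPM under PFOS (median 89.20), and the ranges overlapped.

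The other liver contrasts gave 0 calls by both tools, with unadjusted counts of 0 for vancomycin (background 0%), 7 for the combination against vehicle (0.769%), 3 against vancomycin (0.923%), 2 against PFOS (0%) and 0 for the interaction (0%). At the unadjusted threshold, the shares of all genes were 3.02%, 9.63%, 8.37%, 3.51% and 1.78% in the same order. The member medians for the combination and for vancomycin, each against vehicle, were 0.09 and 0.04.

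The PFOS effect was also compared between liver and each other tissue. Against hypothalamus, 2 of 76 members were called, both with the larger effect in liver (background 0.877% higher and 0.561% lower). Atp5f1e differed by 0.68 ± 0.18 (adjusted p = 0.0378) and Uqcrfs1 by 0.76 ± 0.20 (adjusted p = 0.0391). Atp5f1e had medians of 736.7 and 975.6 CPM in vehicle and PFOS liver, and of 664.4 and 619.4 CPM in hypothalamus. Both calls were lost with log2 depth as a covariate, at differences of 0.603 (adjusted p = 0.0738) for Atp5f1e and 0.643 (adjusted p = 0.109) for Uqcrfs1. They were also lost with the animal number as a replicate block, at 0.603 (adjusted p = 0.267) and 0.817 (adjusted p = 0.134). Against pituitary and thyroid 0 members were called (background 0% and 1.55%), with 3 and 21 at an unadjusted p under 0.05, and DESeq2 was not run on these differences. Of all genes, 4.47% and 12.4% had an unadjusted p under 0.05.

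Related gene lists were read beside the members. Of 31 assembly factors tested in hypothalamus, 3 rose under the combination against vehicle (Tmem126b, Coa3 and Coa5) and 0 fell, where 3% of all genes were called higher and 5.14% lower. Among the citrate cycle genes reported here, Sucla2, Idh3a and Dld rose. Among 9 carriers and coupling genes, Ndufab1 and the ADP/ATP carrier Slc25a4 rose, and among 10 genes of the outer membrane and import Vdac3 rose and Tomm7 fell, against the same shares of all genes. With log2 depth as a covariate, none of these genes kept its call against vehicle (adjusted p from 0.0924 for Dld to 0.684 for Tomm7). Against vancomycin, Coa5 (adjusted p = 0.0316) and Dld (adjusted p = 0.0407) stayed called in that setting. In liver under PFOS, 1 of 18 assembly factors was called, Coa5, a complex IV assembly factor, which was lower by -0.99 ± 0.22 (log2, adjusted p = 0.0188, from 74.82 ± 28.65 to 34.95 ± 2.79 CPM, mean ± SD). Under PFOS, Coa5 was lower in pituitary too (-1.01 ± 0.24, adjusted p = 0.0175). The combination against vehicle had lower Coa5 in pituitary (-0.91 ± 0.24, adjusted p = 0.0284) and liver (-0.80 ± 0.20, adjusted p = 0.041). It had higher Coa5 in hypothalamus (0.67 ± 0.16, adjusted p = 0.00566) and thyroid (0.62 ± 0.16, adjusted p = 0.0292). The PFOS effect on Coa5 differed between liver and hypothalamus by -1.39 ± 0.28 (adjusted p = 0.00573) and between liver and thyroid by -1.49 ± 0.27 (adjusted p = 0.0022). Hypothalamus and thyroid, where Coa5 was called higher, share 1 set of barcodes, and pituitary and liver, where it was called lower, share the other. Without libraries of unusual barcodes, all of them vehicle libraries in pituitary and liver, Coa5 under PFOS was at -0.61 (adjusted p = 0.888) in liver and -0.62 (adjusted p = 1) in pituitary, and both calls were lost. Among vehicle libraries, Coa5 had a mean of 55.52 CPM with the usual barcodes and 90.26 with the unusual ones in liver, and of 110.9 and 184.1 CPM in pituitary. The differences of the PFOS effect were not fitted without these libraries. Without unusual barcodes, Coa5 under the combination stayed called in hypothalamus, at 0.67 (adjusted p = 0.0229), and in thyroid, at 0.73 (adjusted p = 0.049). In liver it was then at -0.415 (adjusted p = 0.927) and in pituitary at -0.519, and both combination calls there were lost. With log2 depth as a covariate, the PFOS calls stayed in liver (adjusted p = 0.0222) and pituitary (adjusted p = 0.0168). Both differences of the PFOS effect stayed called (adjusted p = 0.0201 and 0.0321). The combination calls for Coa5 against vehicle were then lost in hypothalamus, thyroid, liver and pituitary (adjusted p = 0.222, 0.812, 0.106 and 0.335). The call against vancomycin in hypothalamus stayed, at 0.61 (adjusted p = 0.0316). Only 1 of 12 listed regulators of mitochondrial gene expression passed the filter on low counts in the tissue comparison.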

How the data were processed

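The authors deposited whole-number counts for each gene in each library, with no normalization. Per the submitters' processing notes, BWA 0.7.4.4 and the build rn6 were used, and other steps are not given in the sources used here. Groups came from the labels, and 14 of 192 libraries with under 100000 counts were left out of all fits. Counts were fitted per tissue in R 4.3.3 with edgeR 4.0.16 (filterByExpr, minimum count 10, TMM, quasi-likelihood F test, robust dispersion), with Benjamini-Hochberg adjustment over all genes tested and a threshold of 0.05. "Rose", "fell" and "called" refer to it, and a standard error is the log2 value divided by the square root of F. The fit was tested on simulated data. Vehicle libraries of all tissues were fitted together for tissue pairs, and the alternatives were DESeq2 1.42.0, its size factors, no TMM, no filter on low counts, other depth minimums, thinning, log2 depth, barcode or plate column, only the groups compared and a replicate block. The labels do not say that equal numbers mark the same animal. Equal numbers in hypothalamus and thyroid share a barcode, and their vehicle libraries deviated together (median correlation 0.481, lowest 0.234, 12 of 12 closest to their own number). Pituitary and liver, which share the other barcodes, had a median of 0.25, a lowest value of 0.012 and 7 of 9 closest. The pairs that share no barcodes had medians from 0.035 to 0.112 and lowest values from -0.485 to -0.366. The members, gene lists and rules were chosen with earlier results of these data known. Named genes were called members, core subunits, isoform pairs, the most and least abundant genes per complex and the 4 largest tissue differences in each direction. Genes matched RefSeq by symbol. Totals per library set the precision. P-values measure only the spread between libraries, which may be technical. Some results of the related gene lists are not reported here. The depth and barcode alternatives for these lists, and the share of all genes beside the barcode counts, were chosen after seeing the data.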

Additional observations from a re-analysis of the deposited data

Results flagged for a closer look

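In groups of 8 to 10 libraries, 90 values (summed levels and 12 core genes in liver and in thyroid under PFOS) were examined for a single library far from the rest, and chance alone marks about 1 in 20. In liver, 10 stood apart. Under vehicle, the library of animal 2, with 106742 counts, had 18.74 CPM of Uqcrfs1 (next 49.81) and 964.9 CPM of Cox4i1 (next 881.0), and that of animal 1 had 926.9 CPM of Cox5b (next 707.6). Under vancomycin, animal 21 had 190.7 CPM of Ndufs7 (next 252.6). Under PFOS, animal 27 had 203.3 CPM of Ndufv1 (next 120.5) and 153.5 CPM of Uqcrfs1 (next 102.0), and animal 33 had 631.8 CPM of Sdhb (next 461.3). Under the combination, animal 42 had 1.313% of counts on complex IV (next 1.072%) and 67.40 CPM of Sdha (next 126.0), and animal 45 had 1371 CPM of Atp5f1b (next 884.1).

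The PFOS effect differed between liver and hypothalamus for Atp5f1e, by 0.682 (log2, edgeR adjusted p = 0.0378), and for Uqcrfs1, by 0.757 (adjusted p = 0.0391). The Uqcrfs1 value includes both liver libraries named above for that gene.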

How the results depend on the processing

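Each value in a list below is a count of called members unless stated. The share of all genes called under each alternative was not counted, so a change particular to the members was not tested. For hypothalamus, PFOS against vehicle (2 as reported) gave 1 with DESeq2 size factors, no filter, only the 2 groups, all libraries or plate column, and 0 at a minimum depth of 500000 counts, with log2 depth or after thinning. The combination against vehicle (12) gave 6 with no filter, 5 at 500000 counts, 0 with log2 depth, 5 after thinning and 3 without unusual barcodes. Against vancomycin (15) it gave 9 with no filter, 4 at 500000 counts, 9 with all libraries, 1 with log2 depth and 6 without unusual barcodes. Thyroid under PFOS (0) gave 1 with DESeq2. The thyroid combination against vehicle (3) gave 13 with DESeq2, 8 without TMM, 1 with no filter, 0 with log2 depth, 1 after thinning and 1 without unusual barcodes. Against vancomycin (6) it gave 16 with DESeq2, 10 without TMM, 11 at 500000 counts, 2 with no filter, only the 2 groups, all libraries or without unusual barcodes, 0 with log2 depth and 1 with plate column. Fewer genes or libraries enter some of these fits, and otherwise the cause was not tested. All contrasts of pituitary and liver stayed at 0 under the 11 alternatives (the interaction has none for only 2 groups).

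Between tissues, without TMM, hypothalamus against pituitary had 0 lower. Atp5mc1, Ndufv3 and Atp5if1 turned to 0.023, 0.072 and 0.175 (log2) there. Hypothalamus against thyroid had 53 higher and 10 lower without TMM, and 12 lower with DESeq2 size factors and after thinning. Hypothalamus against liver had 68 higher and 3 lower without TMM, 17 higher with DESeq2 and 27 lower with no filter, and the member median turned to 1.035. Pituitary against thyroid had 3 higher without TMM and with no filter, and 6 with all libraries. Pituitary against liver had 26 higher and 27 lower without TMM. Thyroid against liver had 59 higher and 4 lower without TMM, where the median turned to 0.604, and 6 higher at 500000 counts, 7 with PFOS libraries and 6 with combination libraries in place of vehicle. With the animal number as a replicate block, the paired fit gave 34 higher and 19 lower for hypothalamus against thyroid, as without it, and 55 and 7 for hypothalamus against pituitary. The PFOS difference between liver and hypothalamus (2) gave 0 with the block, at 500000 counts and with log2 depth, and that between liver and thyroid (0) gave 1 without TMM. The subunit share under vehicle moved to 6.127%, 4.996%, 5.569% and 4.783% in hypothalamus, pituitary, thyroid and liver without the 10 most abundant genes, and pituitary to 3.12% at 500000 counts. Depth limits liver most, with 11 of its 48 libraries left out and a median of 481289 counts in those kept.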
